A study of Drosophila melanogaster with 8 samples.

Results

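The genes described here encode the proteins of the mitochondrial ribosome in Drosophila melanogaster. They were taken by symbol, as every gene of the Release 6 annotation whose name starts with mRpL or mRpS followed by a digit. This gave 73 genes of 17807 in the gene table, 47 of the large subunit (mRpL) and 26 of the small subunit (mRpS). The rule goes by symbol alone. RNA polymerase II (Pol II) occupancy had been profiled by targeted DamID, in which a bacterial DNA adenine methyltransferase (Dam), fused to Pol II or free, marks GATC sites in the cells that express it. By the labels the cells were terminal tracheal cells, the branched cells that carry air to the midgut, here of adult flies. For 16 hours, flies had been fed either a bacteria solution in sucrose (Pe, named in the labels as the condition of damaged intestine) or sucrose alone (Suc).

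All flies were w- and carried dSRF-GAL4, UAS-CD8GFP and tub-GAL80ts with UAS-LT3-Dam-Pol II or UAS-LT3-Dam. dSRF is the protein of the gene blistered (bs), so Dam was made where that driver was active, and the temperature-sensitive GAL80 kept it off at 18 °C. Flies were aged for 7 days at 18 °C and then held for 24 hours at 29 °C, and were fed as above in the last 16 of these hours. Each condition and replicate pooled 60 midguts with their tracheal cells. There were 2 Pe and 2 Suc profiles, each giving the log2 of Dam-Pol II over Dam on 383654 nuclear GATC fragments. The log base was read from the values and is not stated in the files. Depth is unknown, and 2 profiles per condition limit the precision.

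Mitochondrial ribosomes translate the few proteins that the mitochondrial genome encodes, which are subunits of the oxidative phosphorylation complexes. All of their protein components are encoded in the nucleus, made in the cytosol and imported. Some have counterparts in the bacterial ribosome, while others occur only in mitochondria. In Drosophila, mutations of single genes of this kind, such as tko, slow development and impair respiration.

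A gene's value in a profile was the mean log2 ratio of the GATC fragments that overlap it, weighted by the length of overlap. Of the 73 genes, 61 had the minimum of 3 fragments and were tested, 39 of the large and 22 of the small subunit, among 14004 genes in all. A gene was called occupied where its group mean was above 0 in limma's one-sided test at a Benjamini-Hochberg adjusted p under 0.05. The profiles were checked against marker genes. Of 5 tracheal markers, 1 (stumps) was occupied in Pe and 3 (bs, btl and stumps) were occupied in Suc, and their summed log2 ratio was 2.63 and 0.43 in the Pe profiles, against 3.61 and 4.91 in the Suc profiles. The tracheal regulators trh and vvl were not called in either condition. Of 5 enterocyte markers, 2 were occupied in Pe and 5 in Suc, with sums of 6.64 and 4.60 in the Pe profiles, against 12.1 and 10.5 in the Suc profiles. The enterocyte sums were above the tracheal sums in each profile, and which cells gave the signal was not tested. The stem cell and enteroblast marker esg was occupied in Suc, with 0.15 and 0.22 in the Pe profiles, against 0.77 and 0.86 in the Suc profiles. Of 2 visceral muscle markers, Act57B was occupied in Suc, with 0.38 and 1.25 in Pe, against 1.37 and 1.43 in Suc, and Mhc was not called. Markers of haemocytes, fat body, neurons and enteroendocrine cells were occupied in neither condition, and their levels lay between -0.19 and 0.11.

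The median mitochondrial ribosomal protein gene carried Pol II signal above Dam in every profile. The median log2 ratio was 0.59 and 0.74 in the Pe profiles, against 0.56 and 1.25 in the Suc profiles, where the median of all genes tested lay between -0.00 and 0.10. The Suc replicate 2 profile was the highest for the group. The median gene of the group ranked at percentiles 81.0 and 81.5 of all genes tested in the Pe profiles, against 81.1 and 85.3 in the Suc profiles. In all 4 profiles, 52 of the 61 genes lay above 0 (85.2%, against 37.8% of all genes tested), and 28 lay above the 75th percentile of genes (45.9%, against 16.3%).

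By the limma test, 15 of the 61 genes were occupied in Pe (24.6%) against 7.49% of all 14004 genes, and 30 were occupied in Suc (49.2%) against 21.2%. Of these, 14 were occupied in both conditions, where 7.25% of all genes were. The gene called in Pe alone was mRpL14, which narrowly missed the call in Suc with an adjusted p of 0.0544 (limma, one-sided). All 15 adjusted p-values in Pe (limma, one-sided) lay between 0.0458 and 0.0487, just under the threshold. mRpS14 at 0.0501 and mRpL17 at 0.0517 lay just above it. The adjusted p-values of the 30 genes in Suc lay between 0.0214 and 0.0479. The Pe count therefore depends on where the threshold lies. The difference between the counts of the conditions was not tested. When either Pe profile was left out, both counts were 0, as was the count over all genes. When either Suc profile was left out, the Pe count was 37, against 23.6% of all genes. The Suc count was then 44 without Suc replicate 1, against 28.2% of all genes, and 16 without Suc replicate 2, against 6.16%. With the median of the fragments as gene value, the counts were 0 in Pe, against 0% of all genes, and 9 in Suc, against 3.58%. From unshared fragments alone they were 3 of 59 in Pe, against 1.73% of all genes, and 30 of 59 in Suc, against 19.1%. With quantile normalization they were 43 in Pe and 44 in Suc, against 31.2% of all genes in each condition.

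**Figure D1:**
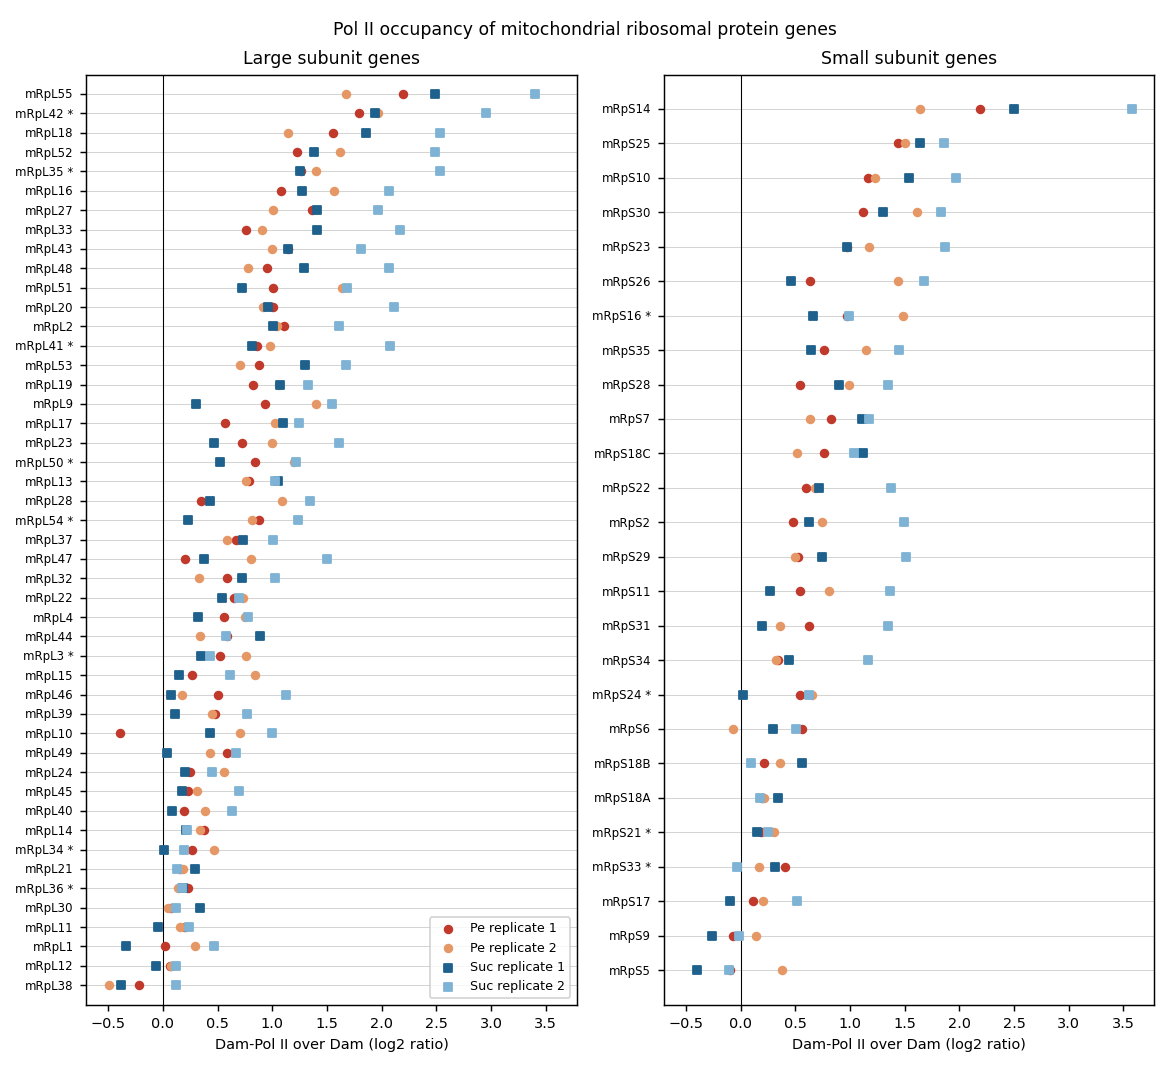
Dam-Pol II over Dam as a log2 ratio (x axis) for all 73 genes, in 1 panel per subunit and 1 row per gene, ordered by the mean of the 4 profiles; circles are Pe and squares are Suc replicates, and a star marks the 12 genes with fewer than 3 fragments. Values run between -0.50 for mRpL38 and 3.58 for mRpS14, and most genes lie right of 0.

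Among the 61 tested genes, mRpS14 and mRpL55 stood highest. mRpS14, a protein of the small subunit head with a bacterial counterpart, lies on chromosome X at 19479382 to 19480238. It had a log2 ratio of 2.19 and 1.64 in the Pe profiles, against 2.50 and 3.58 in the Suc profiles. All of these values were above the 95th percentile of genes (percentiles 96.3 to 99.8). Its Suc mean of 3.04 ± 0.76 was called, and its Pe mean of 1.92 ± 0.39 (SD, n = 2 each) narrowly missed the call, with an adjusted p of 0.0501 in limma's one-sided test.

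mRpL55, a large subunit protein without a bacterial counterpart, lies on chromosome 3R at 19094394 to 19094905. Its log2 ratio was 2.20 and 1.67 in the Pe profiles, against 2.49 and 3.40 in the Suc profiles, and it was occupied in both conditions (Pe mean 1.93 ± 0.37, Suc mean 2.94 ± 0.65, SD, n = 2 each). For both genes the Pe profiles lay below the Suc profiles without overlap.

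The next 4 tested genes by mean were mRpL18, mRpL52, mRpS25 and mRpL16. mRpL18, whose bacterial counterpart sits in the central protuberance, had 1.56 and 1.14 in the Pe profiles, against 1.86 and 2.53 in the Suc profiles. mRpL52, specific to mitochondria, had 1.22 and 1.62 in Pe, against 1.38 and 2.49 in Suc. mRpS25, also specific to mitochondria, had 1.44 and 1.50 in Pe, against 1.64 and 1.86 in Suc, and varied least between replicates among these 6 genes. mRpL16, whose bacterial counterpart lies by the tRNA sites, had 1.08 and 1.56 in Pe, against 1.27 and 2.06 in Suc. The Pe and Suc values of mRpL52 and mRpL16 overlapped, and those of mRpL18 and mRpS25 did not.

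At the other end, 4 tested genes averaged near or below 0. mRpL38, specific to mitochondria, had -0.22 and -0.50 in the Pe profiles, against -0.38 and 0.12 in the Suc profiles. mRpS5, whose bacterial counterpart lines the path by which mRNA enters, had -0.10 and 0.38 in Pe, against -0.40 and -0.10 in Suc. mRpS9, whose bacterial counterpart reaches the peptidyl tRNA, had -0.07 and 0.14 in Pe, against -0.27 and -0.01 in Suc. Stalk protein mRpL12 had 0.07 and 0.08 in Pe, against -0.07 and 0.12 in Suc. None of these 4 genes was occupied in either condition, which adds nothing, since they were chosen by their low means in the same profiles.

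The low mean of mRpS5 covered fragments of unlike level. The gene spans 24537236 to 24543534 on chromosome 3L, with 17 fragments, none shared with another gene. Its second fragment, at the lower end of the gene, had 0.68 and 1.17 in the Pe profiles, against 1.18 and 1.50 in the Suc profiles. Toward the other end, the fragment of 24541689 to 24542506 had -0.80 and -0.43 in Pe, against -1.21 and -1.14 in Suc. mRpL38 likewise ranged over 2.14 log2 units between its 11 fragments, in the mean of the 4 profiles. Over the genes with at least 3 fragments, the median range within a gene was 1.25.

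Genes of the stalk, which recruits translation factors to the ribosome, had the lowest medians of the 4 role groups examined, 0.16 in Pe and 0.10 in Suc. mRpL10, which anchors the stalk, had -0.39 and 0.70 in the Pe profiles, against 0.43 and 0.99 in the Suc profiles. The Pe replicates of mRpL10 thus differed by more than those of any of the 6 highest genes. mRpL11, at the base of the stalk, had 0.20 and 0.15 in Pe, against -0.05 and 0.24 in Suc. None of the 3 stalk genes was occupied in Pe or in Suc, where 7.49% and 21.2% of all genes tested were.

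Around the exit tunnel, through which the new protein leaves, 1 of 4 genes was occupied in each condition. Of all genes tested, 7.49% were occupied in Pe and 21.2% in Suc. That gene was mRpL22, at 0.65 and 0.74 in Pe, against 0.54 and 0.70 in Suc. mRpL23 had 0.72 and 0.99 in Pe, against 0.47 and 1.61 in Suc. mRpL24 had 0.25 and 0.55 in Pe, against 0.20 and 0.45 in Suc. The values of mRpL47 were 0.20 and 0.81 in Pe, against 0.37 and 1.50 in Suc. For all 4 genes the Pe and Suc values overlapped.

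Near the catalytic centre of the large subunit, mRpL2 was occupied in both conditions, with 1.11 and 1.04 in the Pe profiles, against 1.01 and 1.61 in the Suc profiles. mRpL4, which reaches into the tunnel wall, had 0.56 and 0.75 in Pe, against 0.32 and 0.78 in Suc, and was not called. In the small subunit, mRpS7, whose bacterial counterpart starts assembly of the head, was occupied in both conditions, with 0.83 and 0.63 in Pe, against 1.11 and 1.17 in Suc. mRpS2, at the junction of head and body, was occupied in Suc, with 0.48 and 0.74 in Pe, against 0.63 and 1.50 in Suc. mRpS29, the relative of the mammalian GTP-binding protein DAP3, was also occupied in Suc, with 0.53 and 0.50 in Pe, against 0.74 and 1.52 in Suc.

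The small subunit has 3 genes of the S18 family, of which 1 was called, against 7.49% of all genes in Pe and 21.2% in Suc. mRpS18C was occupied in both conditions, with 0.76 and 0.51 in the Pe profiles, against 1.12 and 1.04 in the Suc profiles. mRpS18B had 0.22 and 0.36 in Pe, against 0.56 and 0.09 in Suc. mRpS18A, whose mammalian relative lies in the large subunit, had 0.20 and 0.21 in Pe, against 0.34 and 0.18 in Suc. Neither mRpS18B nor mRpS18A was called in either condition. mRpS30, whose mammalian relative also lies in the large subunit, was occupied in both conditions, with 1.12 and 1.61 in Pe, against 1.30 and 1.83 in Suc.

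The subunits had similar levels in Pe. The median large subunit gene stood at 0.59 and 0.75 in the Pe profiles, and the median small subunit gene at 0.58 and 0.65. In the Suc profiles the large subunit median was 0.47 and 1.03, and the small subunit median was 0.64 and 1.36. Large minus small was therefore 0.01 and 0.10 in Pe, against -0.17 and -0.33 in Suc. Taken on the condition mean of each gene, the difference was 0.02 in Pe and -0.18 in Suc. The differences by profile given before had an SD over 2 profiles of 0.06 in Pe and 0.12 in Suc. The genes of a subunit are not replicates, so this was not tested. Within a profile the genes of either subunit spread over 0.49 to 0.83 (SD over genes), wider than the gap between the subunits.

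Occupied genes numbered 10 of 39 in the large and 5 of 22 in the small subunit in Pe, and 18 of 39 and 12 of 22 in Suc. Over all genes tested the share was 7.49% in Pe and 21.2% in Suc. In a grouping made after the values were seen, the 38 tested genes with a bacterial counterpart had a median of 0.64 in Pe, against 0.88 in Suc, and the 23 genes specific to mitochondria had 0.64 in Pe, against 1.04 in Suc.

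**Figure D2:**
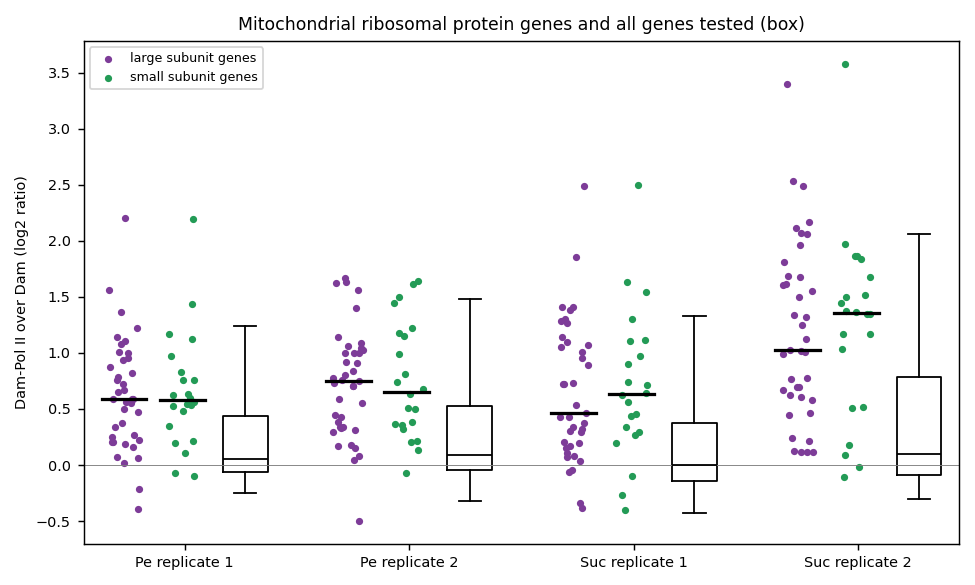
Dam-Pol II over Dam as a log2 ratio (y axis) of the 61 tested genes by subunit (points, with a bar at the median), beside all 14004 genes tested (box from the lower to the upper quartile, line at the median, whiskers at the 5th and 95th percentile), in the Pe and then the Suc profiles. The medians of both subunits lie above the upper quartile of all genes in each profile, and Suc replicate 2 has the widest spread.

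The order of the genes was alike in both conditions. Over the 61 genes the Pe mean and the Suc mean had a Pearson r of 0.92, given as a description, since the genes share libraries. Between replicates r was 0.76 in Pe and 0.85 in Suc. Means tended to be lower in genes with more fragments (Spearman rho of -0.30 over 61 genes).

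Many of these genes are short and lie close to others, and GATC fragments often cover a gene together with its neighbour. The median gene length was 909 bp, between 390 and 13391 bp, with a median of 4 fragments. Of 419 fragments on the 73 genes, 182 (43.4%) also overlapped another gene, and 125 neighbouring genes were involved. A shared fragment was found in 69 genes, and 79.2% of all genes tested have one. Only mRpL38, mRpS30, mRpS5 and mRpS6 had none. In 40 genes most of the length lay in shared fragments, and in 11 all fragments were shared. The signal of a shared fragment cannot be assigned to either gene.

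By their mean, shared fragments were not in general the higher ones. In the 58 genes with both kinds, the shared fragments had the higher mean in 23 genes, and the median of the means was 0.66 for shared and 0.86 for unshared fragments. The highest fragment was a shared one in 26 of the 58 genes, where 43.4% of the fragments were shared. That share was raised by mRpS9, which alone had 51 shared fragments. mRpS30, with no shared fragment, reached 2.07 and 2.48 in the Pe profiles, against 2.59 and 2.17 in the Suc profiles, at its first fragment.

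**Figure D3:**
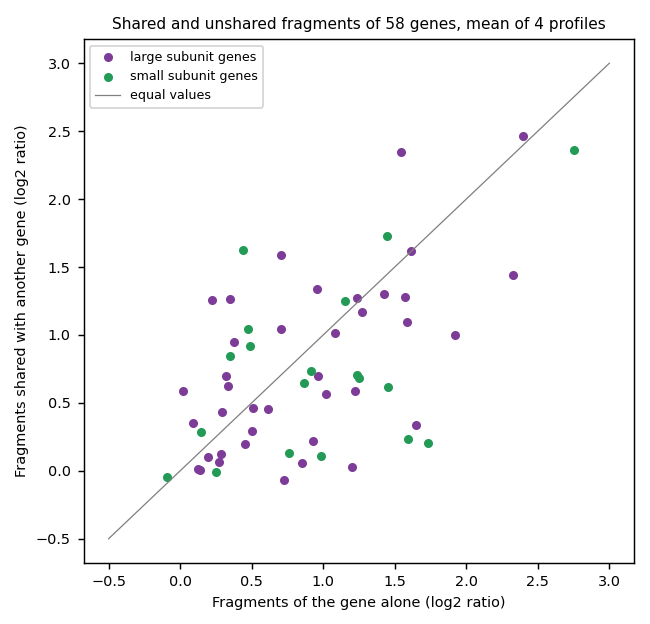
Mean log2 ratio of the fragments shared with another gene (y axis) against that of the fragments of the gene alone (x axis), averaged over the 4 profiles, for the 58 genes with both kinds; 1 point per gene, coloured by subunit, and the line marks equal values. Points lie on both sides of the line, 23 above it.

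For the highest genes the neighbours differed. In mRpL55 the first fragment was shared with the kinase gene cdi and had 3.10 and 3.27 in the Pe profiles, against 3.12 and 3.42 in the Suc profiles. The next fragment, of mRpL55 alone, had 2.80 and 2.74 in Pe, against 2.83 and 3.03 in Suc. The third, also of the gene alone, had 1.68 and 0.996 in Pe, against 2.34 and 3.42 in Suc. Across mRpL55, then, Pe and Suc were near each other at one end of the gene and apart at the other. The last fragment, shared with ATPsynD, a subunit of ATP synthase, had 1.82 and 0.87 in Pe, against 2.14 and 3.50 in Suc.

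mRpS14 shared fragments with CG32533 and Naa15-16. Its only unshared fragment had 2.39 and 1.77 in Pe, against 3.01 and 3.83 in Suc. That fragment lies between the shared ones, which hold 69.2% of the gene's length. A part of the neighbours in the difference was not tested. In mRpL18 the unshared fragment had 2.02 and 1.54 in Pe, against 2.51 and 3.24 in Suc. Its last fragment, with 0.45 and 0.86 in Pe, against 0.89 and 0.73 in Suc, also covered ox, a subunit of respiratory complex III, and Dgkepsilon. Its first fragment was shared with Taz, the gene of the cardiolipin enzyme tafazzin.

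Among the named genes with a test, mRpL53 and mRpL13 had no fragment of their own and cannot be told apart from a neighbour. mRpL53 overlaps CG33155 and AGO1, which encodes a core protein of small RNA silencing, and all 9 of its fragments were shared with both. mRpL13 overlaps CG10602, and all 8 of its fragments were shared with it. Other genes were shared in part. Of the 58 fragments of mRpS9, 51 were shared, 47 of them with the ion channel gene wtrw. In mRpL12, 68.4% of the gene's length lay in a fragment shared with GNBP3, a gene of immune recognition, and that fragment had 0.05 and 0.01 in Pe, against 0.01 and -0.04 in Suc.

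**Figure D4:**
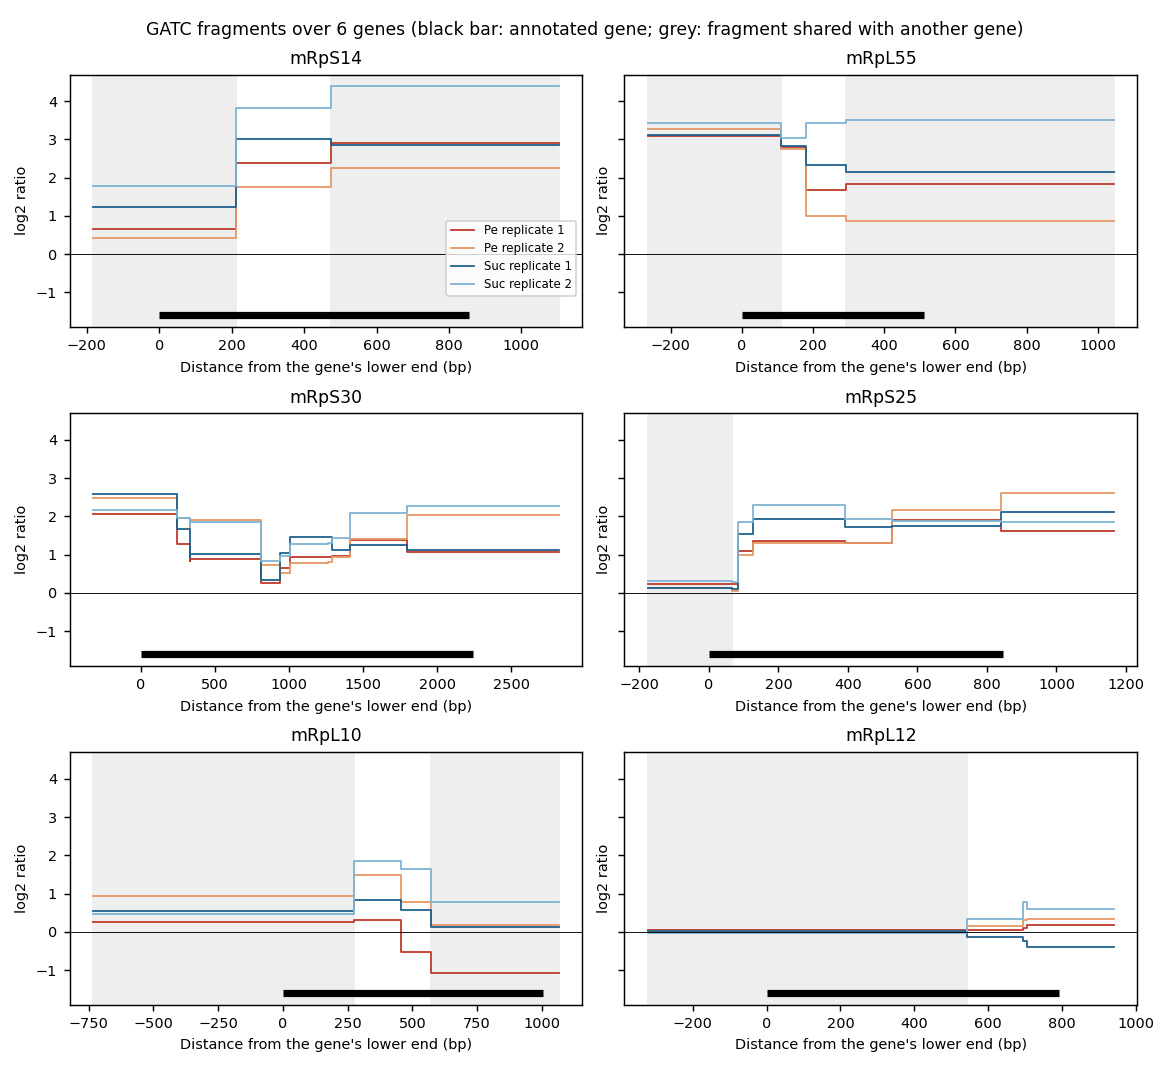
Log2 ratio (y axis) of each GATC fragment over 6 genes, by distance from the gene's lower end in bp (x axis), 1 line per profile; the black bar is the annotated gene and grey marks fragments shared with another gene. Suc lies at 1.23 or above over all of mRpS14, all 4 profiles of mRpS25 step up inside the gene, and the shared fragment of mRpL12 stays near 0.

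The comparison between Pe and Suc asks whether bacterial feeding changed Pol II occupancy. No gene of the group was called higher or lower in Pe at an adjusted p under 0.05 (limma, two-sided), as for 0% of all 14004 genes, where the smallest adjusted p was 0.897. At an unadjusted p under 0.05 there were 0 genes higher and 6 lower of 61, beside 1.66% of all genes higher and 2.27% lower. Without a call, the values of the tested genes of the group lay mostly lower in Pe. The median difference, Pe minus Suc, was -0.24, against 0.02 over all genes tested, and 47 of the 61 genes had a negative difference (77%, against 45.3%). The untested genes went mostly the other way, and only mRpL35, mRpL41 and mRpL42 of them had a negative difference. Without the filter on fragment number, 50 of 73 differences were negative, and the median was -0.20, against 0.02 over all genes. Both Pe profiles lay below both Suc profiles in 20 genes (32.8%, against 14% of all genes), and above them in 2 genes, mRpL14 and mRpS5 (3.28%, against 23%).

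This direction rested on Suc replicate 2. Without that profile the median difference was 0.02, against 0.08 over all genes, and 29 of 61 differences were negative. Without Suc replicate 1 it was -0.47, against -0.05, and 55 were negative. Without Pe replicate 1 the median was -0.14, and without Pe replicate 2 it was -0.28. Scaling reduced it, to -0.09 after quantile normalization with 39 negative differences, and to -0.12 after median and MAD (median absolute deviation) scaling with 42. After quantile normalization both Pe profiles lay below both Suc profiles in 12 of 61 genes, against 18% of all genes. They lay above them in 4, against 18.1%. After MAD scaling the counts were 14 below, against 17.8%, and 3 above, against 15.4%. The summed enterocyte and tracheal markers and the single marker esg, given above, were also lower in both Pe profiles than in both Suc profiles. The summed visceral muscle markers overlapped, with 0.34 and 1.56 in Pe, against 1.34 and 1.49 in Suc. Of these, Act57B was lower in both Pe profiles and Mhc was not. The part of the markers in the result was not tested. In pooled cells, fewer cells with Pol II on a gene and less Pol II per cell cannot be told apart.

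**Figure D5:**
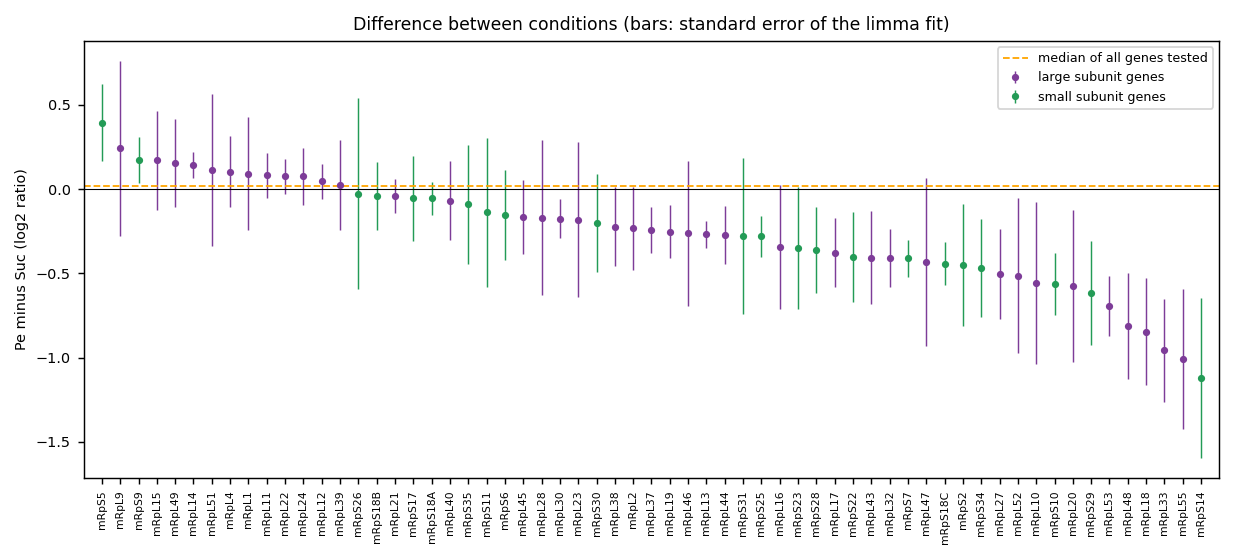
Difference Pe minus Suc in log2 ratio (y axis) with its standard error from the limma fit, for the 61 tested genes in order of the difference, coloured by subunit; the dashed line is the median of all genes tested. Differences run between 0.39 for mRpS5 and -1.12 for mRpS14, and 47 of them are below 0.

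The 5 smallest unadjusted p-values among the lower genes belonged to mRpL53, mRpS7, mRpS18C, mRpL13 and mRpL33. mRpL53 had 0.88 and 0.70 in the Pe profiles, against 1.30 and 1.67 in the Suc profiles, a difference of -0.69 (SE 0.18, unadjusted p = 0.024 in limma). mRpS7 differed by -0.41 (SE 0.11), mRpS18C by -0.44 (SE 0.13) and mRpL13 by -0.27 (SE 0.08). mRpL33 had 0.76 and 0.91 in Pe, against 1.41 and 2.17 in Suc, a difference of -0.96 (SE 0.31). Of its length, 92.3% lay in fragments shared with norpA or NO66, and its only unshared fragment spans 36 bp. The sixth gene under 0.05, mRpS10, which was added here after its value was seen, had 1.17 and 1.23 in Pe, against 1.54 and 1.97 in Suc. In all 6 genes the Pe profiles lay below the Suc profiles, against 14% of all genes tested, and none passed adjustment. The 6 were chosen by the p-value of this same comparison, so their order is not further support. The differences of mRpS14 and mRpL55 were larger in size (-1.12, SE 0.47, and -1.01, SE 0.41), but so was their spread between replicates.

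Among genes with a positive difference, mRpL14, on the face of the large subunit that meets the small one, had 0.37 and 0.34 in Pe, against 0.21 and 0.22 in Suc (difference 0.15, SE 0.08). It was occupied in Pe at a mean of 0.36 ± 0.02 (SD, n = 2), with replicates close to each other. Only the longest stretch of mRpL14, 515 bp in 1 fragment, was higher in Pe, with 0.25 and 0.20, against -0.04 and -0.02 in Suc. In its other fragments both Suc values lay above both Pe values. mRpS5 differed by 0.39 (SE 0.23), mRpS9 by 0.17 (SE 0.14), mRpL22 by 0.08 (SE 0.10) and mRpL11 by 0.08 (SE 0.13). None of these differences was called.

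By subunit, 27 of 39 large and 20 of 22 small subunit genes had a negative difference, against 45.3% of all genes tested. The medians were -0.23 and -0.28. Pe lay below Suc without overlap in 12 large and 8 small subunit genes, against 14% of all genes tested.

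The 12 genes with fewer than 3 fragments were not tested, and their values rest on 1 or 2 fragments. The highest was mRpL42, with 1.79 and 1.97 in the Pe profiles, against 1.94 and 2.95 in the Suc profiles. mRpL35 had 1.26 and 1.40 in Pe, against 1.26 and 2.54 in Suc. mRpL41 had 0.86 and 0.98 in Pe, against 0.82 and 2.07 in Suc. In each of these 3 genes Suc replicate 2 stood above the other 3 profiles.

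Genes at an intermediate level were mRpS16, with 0.98 and 1.49 in Pe, against 0.66 and 0.99 in Suc, and mRpL50, with 0.84 and 1.19 in Pe, against 0.53 and 1.22 in Suc. mRpL54 had 0.88 and 0.82 in Pe, against 0.23 and 1.24 in Suc. mRpL3, a neighbour of the catalytic centre whose only fragment is shared, had 0.52 and 0.76 in Pe, against 0.35 and 0.43 in Suc. mRpS24 had 0.54 and 0.66 in Pe, against 0.02 and 0.62 in Suc. Of these 5 genes, mRpL3 alone had both Pe values above both Suc values.

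The lowest were mRpL34, mRpS21, mRpL36 and mRpS33. mRpL34 had 0.26 and 0.46 in Pe, against 0.01 and 0.19 in Suc. mRpS21 had 0.19 and 0.30 in Pe, against 0.15 and 0.25 in Suc. mRpL36 had 0.23 and 0.14 in Pe, against 0.18 and 0.17 in Suc. mRpS33 had 0.41 and 0.16 in Pe, against 0.32 and -0.04 in Suc. Only mRpL34 of these 4 had Pe values above both Suc values.

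Other genes of mitochondrial gene expression had lower medians. The genes tko and bonsai encode small subunit proteins too (S12 and S15) but carry other names. tko had -0.11 and 0.22 in the Pe profiles, against -0.15 and -0.19 in the Suc profiles. bonsai had 0.41 and 0.71 in Pe, against -0.06 and 1.12 in Suc. Neither was called in either condition.

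Of 9 translation factors tested, 1 was occupied in Pe (11.1%) and 2 in Suc (22.2%), against 7.49% and 21.2% of all genes tested. Their medians were 0.14 in Pe and 0.16 in Suc. The elongation factor mEFTu2 had 0.32 and 0.36 in Pe, against 0.05 and 0.07 in Suc, and its relative mEFTu1 had 0.46 and 0.37 in Pe, against 0.50 and 1.20 in Suc. The release factor mRF1 had 0.28 and 0.01 in Pe, against 0.64 and 0.90 in Suc. mRRF2, a recycling factor, differed by 0.16. These are the extremes of the list by difference, and none passed adjustment.

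Of 13 genes of mitochondrial DNA maintenance and transcription, 0 were occupied in Pe and 4 in Suc (30.8%), against 7.49% and 21.2% of all genes. Their medians were 0.31 in both conditions. The lowest differences were those of mTerf3 (-0.27) and mtDNA-helicase (-0.20), and the highest those of mtSSB (0.23) and TFAM (0.05), which packs mitochondrial DNA. Of 15 mitochondrial aminoacyl-tRNA synthetases, 1 was occupied in Pe (6.67%) and 3 in Suc (20%), with medians of 0.09 in Pe and 0.02 in Suc. Their differences ran between -0.49 for AsnRS-m, followed by GluRS-m at -0.16, and 0.39 for TrpRS-m, preceded by ArgRS-m at 0.37. ArgRS-m overlaps mRpS9 and shares 3 fragments with it. Of 14 import and chaperone genes, 2 were occupied in Pe (14.3%) and 5 in Suc (35.7%), with medians of 0.16 in Pe and 0.22 in Suc. Tim10 (-0.64) and Trap1 (-0.36) were lowest and Tim23 (0.32) and Tim17b (0.30) were highest by difference.

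Genes of the respiratory chain, whose mitochondrially encoded partners the mitochondrial ribosome makes, were nearer in level. Of 77 nuclear oxidative phosphorylation subunits, 23 were occupied in Pe (29.9%) and 43 in Suc (55.8%), against 7.49% and 21.2% of all genes. They had medians of 0.70 in Pe and 0.89 in Suc and a median difference of -0.10. Their lowest differences were ATPsynD (-0.92) and COX7AL (-0.83), and their highest ND-23 (0.61) and ND-MWFE (0.47). ATPsynD shares 1 fragment with mRpL55. Of 86 cytosolic ribosomal protein genes, 17 were occupied in Pe (19.8%) and 48 in Suc (55.8%), with medians of 1.08 in Pe and 1.29 in Suc and a median difference of -0.07. RpLP2 (-1.18) and RpL22 (-1.17) were lowest and RpS5b (0.60) and RpL10 (0.52) were highest by difference. No gene of any of these lists was called between Pe and Suc. The lists were not tested against the mitochondrial ribosomal protein genes.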

How the data were processed

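The authors deposited 1 value per GATC fragment for each Dam-Pol II library with its Dam library, read here as a log2 ratio. The build is BDGP 6, per the submitters' processing notes, and the sources used here do not give the aligner, scaling or log base. The file of Suc replicate 2 carries track number 3, and its replicate number follows the labels. Mitochondrial fragments were left out. Gene coordinates came from RefSeq's Release 6 gene table, which was used without strand, exons or sequence.

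Genes were fitted in limma 3.58.1 (R 4.3.3). Both conditions shared 1 estimate of the spread over 4 profiles, with a prior variance trended on fragment number. The p-values were adjusted over 14004 protein coding and lncRNA genes with at least 3 fragments that were not 0 in every profile. The script was tested on simulated data. The labels call the replicates biological. Genes were named by rule (the 6 highest and 4 lowest, the 5 smallest p in each direction, a fixed role set, all untested genes, and the 2 highest and 2 lowest differences of each list). The members and lists were chosen with earlier results of these data known. The alternatives were other fragment filters, gene values, scalings, prior variance, genes tested and subunit assignment, unshared fragments, the replicate number as a block, and leaving out each profile.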

Additional observations from a re-analysis of the deposited data

How the results depend on the processing

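No gene of the group was called between Pe and Suc under any alternative run. Occupied genes, 15 of 61 in Pe and 30 in Suc, numbered 0 in Pe (all genes 0%) and 9 in Suc (3.58%) with the median of the fragments, 3 in Pe (1.73%) with unshared fragments only, and 18 of 35 in Suc (22.3%) with at least 5 fragments. They numbered 43 in Pe (31.2%) with quantile normalization and 41 in Pe (30%) with median and MAD scaling. When a profile was left out they numbered 0 to 37 in Pe (0% to 23.6%) and 0 to 44 in Suc (0% to 28.2%). With the replicate block 32 genes were occupied in Pe and 42 in Suc, where 23.5% and 28.7% of all genes were. The replicates of both conditions share only a number, and their deviations had a correlation of 0.285 over 14004 genes.

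Large minus small subunit, 0.02 in Pe, was -0.071 with at least 5 fragments, -0.086 unweighted, -0.20 with the median of the fragments and 0.0085 to 0.098 with a profile left out. In Suc, -0.18 became -0.062 without a filter, -0.32 with at least 5 fragments, -0.39 with the median, -0.49 with unshared fragments and -0.33 to -0.17 with a profile left out.

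Of 364 recomputed differences of 29 named genes, 31 changed sign, 14 of them with all profiles kept, and 13 genes never changed sign. Unweighted means gave -0.15 for mRpL14, -0.023 for mRpL22 and 0.0083 for mRpS18B. Medians gave -0.22 for mRpL14, -0.11 for mRpL22, 0.034 for mRpL38 and 0.17 for mRpS18B. Unshared fragments gave 0.12 for mRpL2. Quantile normalization gave 0.025 for mRpL2, 0.049 for mRpL23, 0.043 for mRpS25 and 0.10 for mRpS30, and MAD scaling gave 0.0078 for mRpL23 and 0.027 for mRpS30. With a profile left out, differences ran between -0.061 and 0.22 for mRpL11, -0.044 and 0.14 for mRpL12, -0.74 and 0.054 for mRpL16, -0.53 and 0.068 for mRpL2, -0.0021 and 0.16 for mRpL22, -0.76 and 0.39 for mRpL23, -0.078 and 0.23 for mRpL24, -0.47 and 0.025 for mRpL38, -0.125 and 0.335 for mRpL4, -0.99 and 0.13 for mRpL47, -1.07 and 0.042 for mRpL52, -0.14 and 0.027 for mRpS18A, -0.27 and 0.20 for mRpS18B, and -0.47 and 0.065 for mRpS30. The cause of these changes was not tested. Leaving out a profile leaves 1 condition with a single profile, which is assumed to vary like the other. Depth is unknown, so what it limits cannot be stated.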

Other observations

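Fragments under 50 bp had values between those of their neighbours more often than longer ones. On the mitochondrial ribosomal protein genes this held for 78.3% and 79.7% of 69 short fragments in the Pe profiles and for 69.6% and 76.8% in the Suc profiles. Among the 350 longer fragments it held for 57.1% and 60.3% in Pe and for 60.6% and 57.7% in Suc. Over all nuclear fragments the shares were 77.7% to 83.4% of 73820 short and 59.6% to 64.5% of 309820 longer fragments.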
